A study of Mus musculus with 8 samples.

Results

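The UDP-glucuronosyltransferases (Ugt), sulfotransferases (Sult) and glutathione transferases (Gst, and the membrane-bound Mgst) attach a water-soluble group to drugs, dietary compounds, steroids and bile acids so that they can be exported. They were followed here in the colon of mice labelled as deficient in STAT5b, which carries signals of growth hormone and several cytokines to the nucleus. Members were all genes with a symbol that begins with Ugt or Sult and a digit, with Gsta, Gstk, Gstm, Gsto, Gstp or Gstt and a digit, or with Mgst and a digit. Of 69 such symbols in the RefSeq gene table, 52 had a probe set, each with a single one, among 14351 named genes. The 8 measured Ugt1a genes share their last exons and were counted once, which left 45 members: 13 Ugt, 12 Sult, 17 Gst and 3 Mgst. No filter on low values was applied, so all 45 were tested.

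The series holds 3 arrays titled WT, 3 titled STAT5b-/- and 1 wild type sample titled REF, whose 2 deposited columns hold the same values to within 2.47e-07, less than any sampling noise, and count as 1 sample here. The RNA was from the colon of adult mice, all labelled female except STAT5b-/- replicate 1, which is labelled male. Strain, the way the Stat5b gene was disrupted and the meaning of REF are not given in the sources used here, nor is it said whether replicates were separate animals. The p-values therefore reflect the spread among these arrays alone, and part of it may be technical. Values are relative, with the WT average of each probe set at 1, so the level of a gene against another, or whether it is expressed at all, cannot be read from it.

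Glucuronidation takes the sugar acid from UDP-glucuronate in the endoplasmic reticulum, sulfation takes sulfate from PAPS in the cytosol, and glutathione conjugation joins the thiol of glutathione to reactive compounds. In the gut, the absorptive epithelium carries much of this activity, at the first surface that food compounds and bacterial products meet. In the liver, STAT5b carries the growth hormone signal that sets the sex-specific levels of several enzymes of this kind.

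Stat5b itself, the check of the labels, had ratios of 1.08, 0.930 and 0.993 in WT, 1.16, 1.17 and 1.26 in STAT5b-/- and 1.18 in REF. Its transcript was thus not lower in the arrays labelled STAT5b-/-; whether its probe set lies in the disrupted part is not known, so every direction below rests on the labels. Array medians over all probe sets ran from 0.948 to 1.04.

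In the STAT5b-/- arrays, 18 of the 45 conjugating enzymes rose and 0 fell. That is 40.0% of the members, beside 21.7% of all 14344 genes tested (13.2% higher, 8.43% lower; limma, adjusted p under 0.05). At an unadjusted p under 0.05, 22 members were higher and 0 lower. The median log2 difference, STAT5b-/- minus WT, was 0.46 over the members and 0.01 over all genes. The STAT5b-/- and WT values did not overlap in 21 members that were higher and 1 that was lower, 48.9% of the members, where 41.5% of all genes were apart (24.9% higher, 16.5% lower). At least 2-fold rises were seen in 14 members, beside 4.98% of all genes. REF lay below all 3 STAT5b-/- arrays in each of the 18 risen members. It did so too in members that did not pass, such as Gsta2, Sult2a2 and Ugt2b1, so this was not particular to the risen ones. Its share over all genes was not counted. REF was lower than the WT mean of log2 ratios in 31 of the 45 members and in 8206 of all 14344 genes. Without the male STAT5b-/- replicate 1, among females only, 15 of the 18 passed, and Sult2b1, Gstp3 and Gstt2 did not. The call depended on the scaling: quantile normalization left 3 of the 18, Ugt8a, Gstk1 and Sult1d1, although all 18 differences stayed positive. Under it 333 of all genes passed in place of 3107, of which 127 were higher and 206 lower, against 1898 and 1209.

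**Figure D1:**
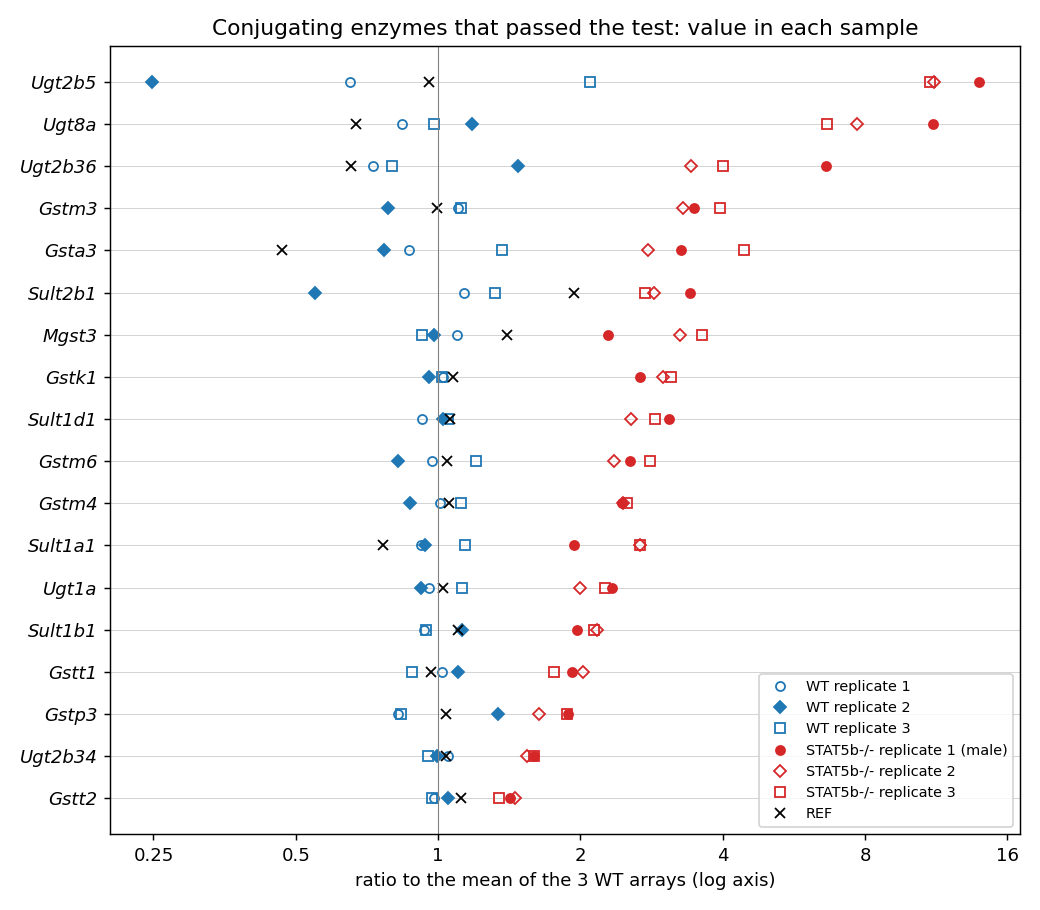
Ratio to the WT mean (log axis) in each sample for the 18 conjugating enzymes that passed the test, ordered by fold. Blue symbols are the WT arrays, red symbols the STAT5b-/- arrays and crosses REF; no red symbol overlaps a blue one, and REF stays left of all red symbols, while the WT arrays spread widely in Ugt2b5.

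By family, 5 of 13 Ugt, 4 of 12 Sult, 8 of 17 Gst and 1 of 3 Mgst rose. The median log2 difference was -0.07 for Ugt, 0.07 for Sult, 0.49 for Gst and 0.70 for Mgst. The Ugt family held the 3 largest rises as well as 7 members with a negative difference, none of which passed. In the Gst family 15 of 17 differences were positive. No test compared the families with each other.

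**Figure D2:**
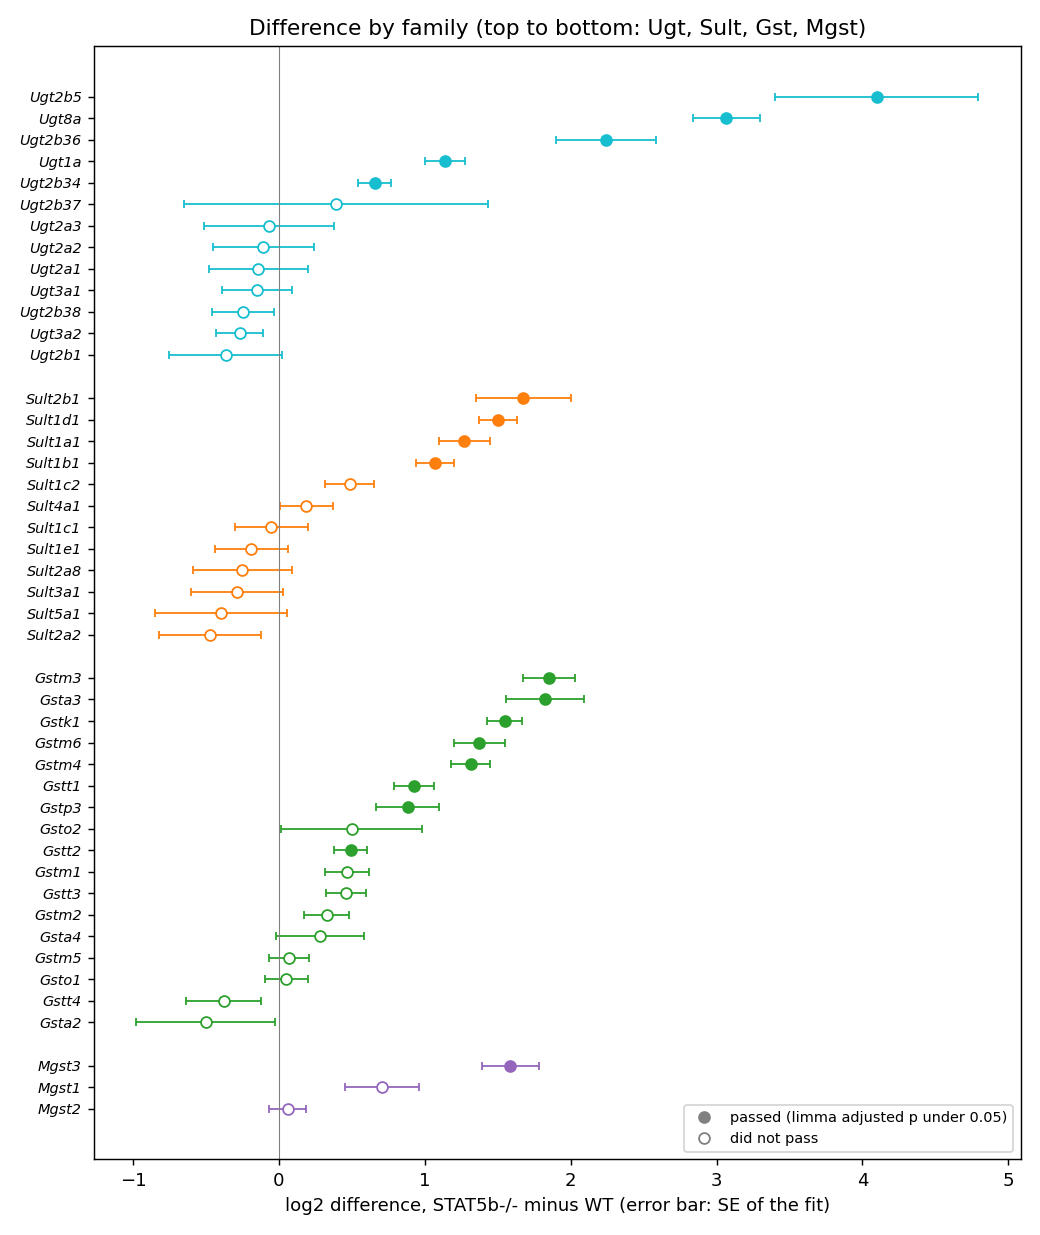
Log2 difference, STAT5b-/- minus WT, with the SE of the fit for each of the 45 members, grouped by family and ordered by size. Filled circles passed the limma test; the 3 largest differences are filled circles of the Ugt family, most open circles of the Ugt and Sult families lie near or below 0, and 15 of 17 Gst members lie above 0.

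The Ugt1a locus makes a set of enzymes from alternative first exons, each with its own promoter, joined to shared last exons; among them Ugt1a1 conjugates bilirubin. The 8 Ugt1a probe sets differed from each other by at most 3.09% in any array, so they read essentially the same RNA and cannot tell which first exon was used. Averaged into 1 value, Ugt1a had ratios of 0.954, 0.922 and 1.12 in WT, 2.33, 2.0 and 2.25 in STAT5b-/- and 1.02 in REF. All STAT5b-/- arrays were above all others. The mean was 2.19 ± 0.175 (SD, n = 3), a 2.20-fold rise, with a log2 difference of 1.14 ± 0.14 (SE, limma adjusted p = 0.00235). The largest departures from the other Ugt1a sets were 3.02% in Ugt1a6a and 2.72% in Ugt1a10, against at most 0.191% in the remaining 6. The starts of these genes are unlike: the 250 bases before the start were 41.2% to 68.9% identical between pairs of the 7 Ugt1a genes with an entry (median 45.9%, beside 44.4% for pairs of members from different families). The 150 bases before the start of Ugt1a1 and Ugt1a6a, from RefSeq (GRCm38.p6, 5′ to 3′, plus strand, chr1:88211809-88211958 and chr1:88134659-88134808), show how different the promoters are that feed a single measured value; capitals mark a match to the STAT motif, present in Ugt1a6a only.
Ugt1a1: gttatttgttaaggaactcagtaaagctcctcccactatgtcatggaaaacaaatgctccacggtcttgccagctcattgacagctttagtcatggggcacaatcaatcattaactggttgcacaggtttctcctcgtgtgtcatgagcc
Ugt1a6a: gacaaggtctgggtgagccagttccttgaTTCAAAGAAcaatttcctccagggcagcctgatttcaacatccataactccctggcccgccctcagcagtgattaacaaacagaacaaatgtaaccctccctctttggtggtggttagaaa

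The Ugt2b genes, which conjugate steroids, bile acids and drugs and lie in a row on chromosome 5, split. Ugt2b5 had ratios of 0.652, 0.248 and 2.10 in WT, 13.9, 11.2 and 11.0 in STAT5b-/- and 0.955 in REF. The STAT5b-/- values lay close together and far above the others, whereas the WT arrays were widely spread, with an SD of 0.974. The rise was 17.1-fold (log2 difference 4.10 ± 0.70, limma adjusted p = 0.00784), but 10.2-fold without WT replicate 2 and 29.7-fold without WT replicate 3. Ugt2b36 had ratios of 0.729, 1.47 and 0.798 in WT, 6.61, 3.43 and 4.0 in STAT5b-/- and 0.656 in REF. The male array was the highest of the STAT5b-/- arrays, and the groups were apart (4.73-fold, adjusted p = 0.00557). Ugt2b34 had the smallest of these rises, with near equal STAT5b-/- arrays, from 1.05, 0.997 and 0.951 in WT and 1.04 in REF to 1.59, 1.54 and 1.59 (1.58-fold, adjusted p = 0.00822).

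Ugt2b38, Ugt2b1 and Ugt2b37, of the same row, did not pass. Ugt2b38 had ratios of 0.792, 1.31 and 0.901 in WT, 0.710, 0.872 and 0.899 in STAT5b-/- and 0.715 in REF, a log2 difference of -0.25 (95% interval -0.76 to 0.26). Ugt2b37 had a single high array, as WT replicate 2 stood at 2.67 beside 0.130 and 0.204 in the other WT arrays, 0.555, 0.541 and 0.533 in STAT5b-/- and 0.241 in REF. Without WT replicate 2 its difference passed, as 3.33-fold higher in STAT5b-/- (adjusted p = 0.00199). Ugt2b1 had a log2 difference of -0.36 (95% interval -1.28 to 0.56).

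These paralogs resemble each other, so a probe set may read more than its own gene and each single Ugt2b value is uncertain. The 250 bases before the start of Ugt2b5, Ugt2b37 and Ugt2b38 were 72.6% to 84.8% identical, and those of Ugt2b5 and Ugt2b38 81.5%, yet the log2 differences of the latter pair were 4.10 and -0.25. Their upstream stretches (RefSeq, GRCm38.p6, 5′ to 3′, minus strand, chr5:87140341-87140590 and chr5:87424204-87424453) are given to show where 2 alike promoters part. Capitals mark the bases that differ or have no partner in the alignment, which held 28 mismatched positions and 10 unpaired bases on each side. A long run without capitals lies close to the start, but the last few bases before the start hold capitals again.
Ugt2b5: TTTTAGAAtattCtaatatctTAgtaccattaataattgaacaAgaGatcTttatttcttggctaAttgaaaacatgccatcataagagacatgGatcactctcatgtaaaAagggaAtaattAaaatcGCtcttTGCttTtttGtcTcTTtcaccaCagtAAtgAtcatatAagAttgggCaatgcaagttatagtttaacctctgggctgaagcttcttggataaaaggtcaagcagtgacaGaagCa
Ugt2b38: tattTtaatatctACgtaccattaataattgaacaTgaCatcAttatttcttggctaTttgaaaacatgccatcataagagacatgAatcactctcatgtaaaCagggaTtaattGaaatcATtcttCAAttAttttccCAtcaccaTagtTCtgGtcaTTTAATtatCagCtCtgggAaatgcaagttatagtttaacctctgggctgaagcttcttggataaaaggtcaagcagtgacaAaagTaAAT

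Ugt8a belongs to the family by sequence but makes galactosylceramide, a membrane lipid, from UDP-galactose. Its ratios were 0.839, 1.18 and 0.979 in WT, 11.2, 7.70 and 6.64 in STAT5b-/- and 0.671 in REF. Here too the male array was the highest, and all 3 stood far above WT and REF. The rise was 8.37-fold, with a mean of 8.5 ± 2.36 (SD, n = 3), a log2 difference of 3.07 ± 0.23 and limma adjusted p = 0.000438. This was the smallest adjusted p among the members, and the rise held under quantile normalization (log2 difference 1.81, adjusted p = 0.0109).

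The Ugt2a and Ugt3a genes did not rise. Ugt2a1, first known from the olfactory epithelium, and Ugt2a2 are neighbours whose values differed by at most 4.86% in any array, so they too were read as nearly the same RNA. Their log2 differences were -0.14 and -0.11. Ugt2a3 had a log2 difference of -0.07 (95% interval -1.13 to 0.99), with WT replicate 2 at 1.84 and the STAT5b-/- arrays between 0.776 and 0.832. Ugt3a1 had a log2 difference of -0.15 (-0.72 to 0.42). Ugt3a2, of a branch that uses sugars other than glucuronate, had ratios of 0.910, 1.22 and 0.873 in WT, 0.792, 0.827 and 0.842 in STAT5b-/- and 0.777 in REF. It was the only member with all STAT5b-/- arrays below all WT arrays, and REF was lower still; the log2 difference of -0.27 did not pass (adjusted p = 0.286).

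Among the sulfotransferases, Sult1d1, an enzyme for catecholamines and related amines, had ratios of 0.925, 1.02 and 1.05 in WT, 3.08, 2.56 and 2.88 in STAT5b-/- and 1.06 in REF. The rise of 2.84-fold (log2 difference 1.5 ± 0.13, limma adjusted p = 0.000739) left the groups far apart, and it held under quantile normalization (adjusted p = 0.0348). Sult1a1, the main phenol sulfotransferase, had 0.921, 0.940 and 1.14 in WT, 1.94, 2.68 and 2.67 in STAT5b-/- and 0.766 in REF, a 2.41-fold rise (adjusted p = 0.00385). Here the male array was the lowest of the STAT5b-/- arrays, still above every WT array. Sult1b1, which takes phenols and thyroid hormones, rose 2.10-fold, from 0.933, 1.13 and 0.942 in WT to 1.97, 2.17 and 2.14 (adjusted p = 0.00250), with REF at 1.10.

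Sult2b1, which sulfates cholesterol and pregnenolone, had ratios of 1.13, 0.549 and 1.32 in WT, 3.41, 2.86 and 2.74 in STAT5b-/- and 1.94 in REF. REF, a wild type sample, lay above all WT arrays and between the groups. The rise was 3.20-fold (log2 difference 1.68 ± 0.33, adjusted p = 0.0127), and it missed the threshold without the male STAT5b-/- replicate 1 (adjusted p = 0.0579).

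Of the other Sult members, Sult1c2 had 0.836, 1.21 and 0.953 in WT, 1.35, 1.3 and 1.51 in STAT5b-/- and 0.816 in REF. The groups were apart, but the log2 difference of 0.49 did not pass (adjusted p = 0.0862; 0.0172 without WT replicate 2). Sult1e1, the estrogen sulfotransferase and the chromosome 5 neighbour of the risen Sult1b1 and Sult1d1, had a log2 difference of -0.19 (95% interval -0.79 to 0.41). The hydroxysteroid enzymes Sult2a2 and Sult2a8 are known for bile acids and adrenal steroids. Sult2a2 had ratios of 0.573, 1.55 and 0.880 in WT, 0.625, 0.596 and 0.788 in STAT5b-/- and 0.320 in REF (log2 difference -0.47, 95% interval -1.30 to 0.36), so that the groups overlapped and REF was lowest. Sult2a8 had a log2 difference of -0.25, with WT replicate 2 at 1.54 and REF at 0.505. Sult4a1, Sult1c1, Sult3a1 and Sult5a1 lay between -0.39 and 0.19, with adjusted p from 0.528 to 0.913.

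Mu class glutathione transferases, a row of genes on chromosome 3, were graded. Gstm3 had ratios of 1.10, 0.782 and 1.12 in WT, 3.47, 3.29 and 3.94 in STAT5b-/- and 0.994 in REF. It was the largest rise among the glutathione transferases at 3.60-fold (log2 difference 1.85 ± 0.18, limma adjusted p = 0.000979). Gstm6 rose 2.59-fold, from 0.973, 0.822 and 1.21 to 2.54, 2.36 and 2.80, with REF at 1.04 (adjusted p = 0.00262). Gstm4 rose 2.49-fold, from 1.01, 0.873 and 1.12 to 2.45, 2.46 and 2.51, with REF at 1.06 (adjusted p = 0.00120). The STAT5b-/- arrays were almost equal in Gstm4, with an SD of 0.0287. Gstm1 had 0.989, 0.906 and 1.10 in WT, 1.18, 1.44 and 1.54 in STAT5b-/- and 0.807 in REF, which did not pass although the groups were apart (log2 difference 0.47, adjusted p = 0.0710). Gstm2 and Gstm5 had log2 differences of 0.33 (95% interval -0.04 to 0.69) and 0.07 (-0.26 to 0.40). Mu class transcripts are close in sequence, so a probe set may read more than its own gene.

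The alpha class gave a rise in Gsta3 only among 3 measured genes. Gsta3, known in mice for detoxifying the aflatoxin epoxide, had ratios of 0.867, 0.770 and 1.36 in WT, 3.26, 2.78 and 4.43 in STAT5b-/- and 0.466 in REF. REF lay below every WT array, while STAT5b-/- stayed above all wild type samples. The rise was 3.53-fold (log2 difference 1.82 ± 0.27, limma adjusted p = 0.00461). Gsta4, which acts on lipid peroxidation products, had a log2 difference of 0.28 (95% interval -0.44 to 1.00), and Gsta2 one of -0.50 (-1.63 to 0.63) with WT replicate 2 at 1.83 and the other WT arrays at 0.458 and 0.716.

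Gstk1, an enzyme of mitochondria and peroxisomes, combined a tight WT group with a clear rise: 1.02, 0.954 and 1.02 in WT, 2.68, 2.99 and 3.11 in STAT5b-/- and 1.08 in REF. The rise of 2.92-fold (log2 difference 1.55 ± 0.12, limma adjusted p = 0.000528) held under quantile normalization (adjusted p = 0.0355). Gstt1, of the theta class that handles small halogenated compounds, rose 1.90-fold from 1.02, 1.10 and 0.879 to 1.91, 2.03 and 1.75, with REF at 0.965 (adjusted p = 0.00484). Its neighbour Gstt3 had 1.14, 0.884 and 0.976 in WT, 1.35, 1.34 and 1.42 in STAT5b-/- and 0.990 in REF, apart but short of the threshold (adjusted p = 0.0539). The 2 rises with the largest adjusted p were Gstt2, 1.41-fold (0.980, 1.05 and 0.969 in WT, 1.42, 1.45 and 1.35 in STAT5b-/-, 1.12 in REF, adjusted p = 0.0234), and the pi class gene Gstp3, 1.84-fold (0.823, 1.34 and 0.836 in WT, 1.88, 1.63 and 1.88 in STAT5b-/-, 1.04 in REF, adjusted p = 0.0276). Both missed the threshold when any array other than WT replicate 2 was left out, with adjusted p up to 0.0936 for Gstt2 and 0.0970 for Gstp3. Gsto1, which reduces dehydroascorbate, had a log2 difference of 0.05 (95% interval -0.30 to 0.40), and Gstt4 one of -0.38. With WT replicate 1 left out, Gstt4 was called lower, at -0.66 (adjusted p = 0.0472). Gsto2 had 0.479, 1.90 and 0.623 in WT and 1.34, 1.14 and 1.05 in STAT5b-/-, and passed as 2.14-fold higher without WT replicate 2 (adjusted p = 0.00611).

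Of the membrane-bound enzymes, Mgst3, a glutathione transferase and peroxidase, had ratios of 1.10, 0.979 and 0.923 in WT, 2.28, 3.25 and 3.61 in STAT5b-/- and 1.40 in REF. REF again lay above the WT arrays but below every STAT5b-/- array. The rise was 3.0-fold (log2 difference 1.59 ± 0.20, limma adjusted p = 0.00255). Mgst1 had 0.909, 1.13 and 0.958 in WT and 2.07, 1.10 and 1.88 in STAT5b-/-, with REF at 0.878; STAT5b-/- replicate 2 fell within the WT range, and the difference of 0.70 did not pass (adjusted p = 0.0949; 0.0221 without that array). Mgst2, which can form leukotriene C4, had 0.938, 1.04 and 1.02 in WT, 1.07, 0.939 and 1.12 in STAT5b-/- and 0.933 in REF, with a log2 difference of 0.06 (95% interval -0.24 to 0.36).

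Among the 27 members that did not pass, WT replicate 2 was the highest WT array in 20 and the highest of all 7 samples in 17. It was the highest WT array in 6023 of all 11237 genes that did not pass. How often it was the highest of all 7 samples over those genes was not counted. The median ratio of WT replicate 2 was 1.33 over the 27 and 1.06 over all genes that did not pass. The test itself reads the WT spread, so the 27 were in part chosen by it, and these values are a description. REF was lower than the WT mean of log2 ratios in 26 of the 27 and below every WT array in 15. Over all genes that did not pass, REF was lower in 6853 of 11237, so a low REF was common across the array. How often REF lay below every WT array over those genes was not counted. Over small intestine markers the median ratio was 1.19 in WT replicate 2 and 0.725 in REF. It was 1.13 and 0.881 over liver markers, and 1.28 and 0.842 over pancreas markers. Over absorptive colonocyte markers it was 1.01 and 1.01, and over goblet markers 1.06 and 0.885. Fibroblast and smooth muscle markers gave 1.01 and 0.886, stem and crypt base markers 0.962 and 1.20. Over all genes it was 1.04 and 0.956. The part of these lists in the members' values was not tested. Without WT replicate 2, 22 members rose and 0 fell, the original 18 among them. Calls over all genes changed too when an array was left out, as given further below, so this gain cannot be read as particular to the members.

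**Figure D3:**
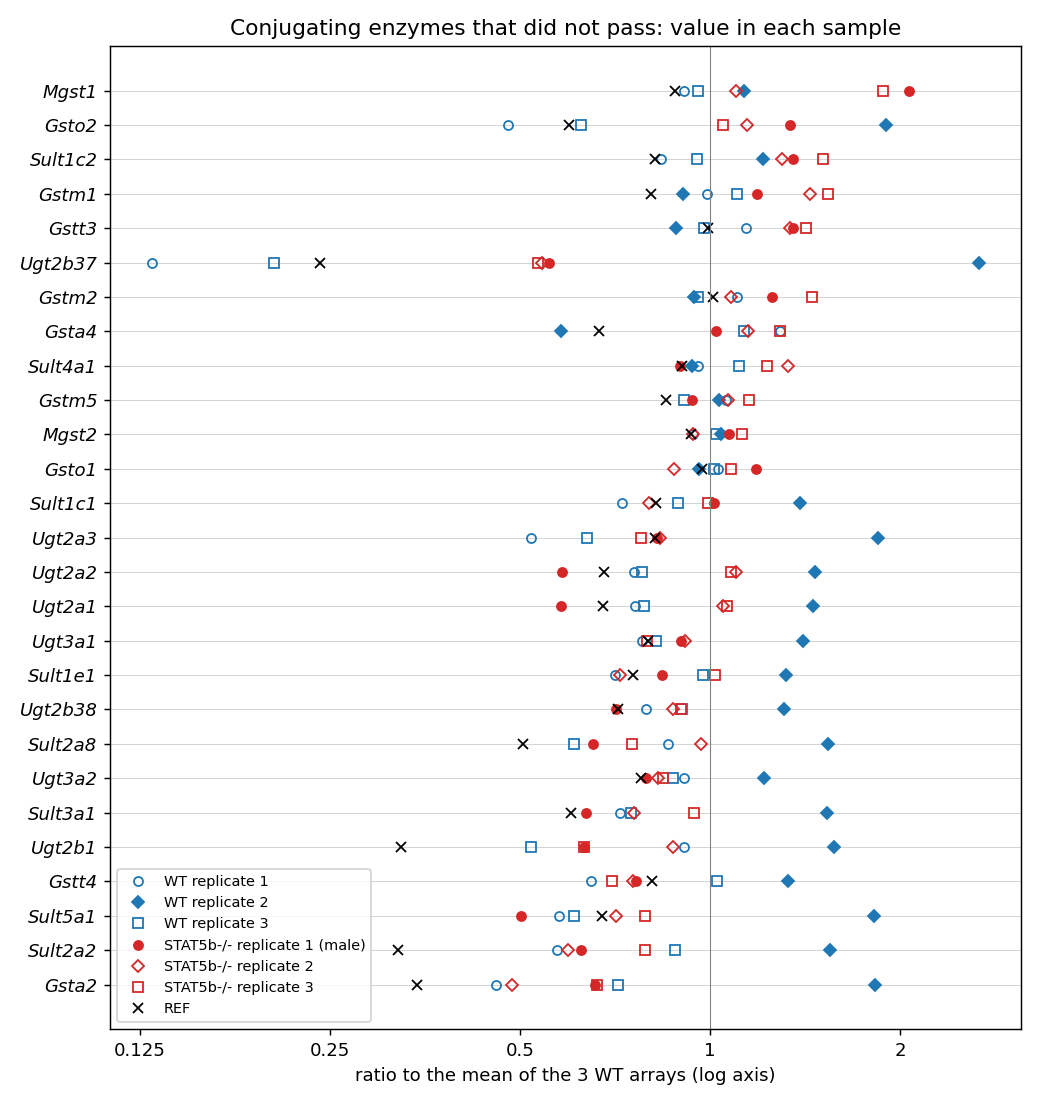
Ratio to the WT mean (log axis) in each sample for the 27 members that did not pass, ordered by difference. Filled blue diamonds (WT replicate 2) lie at the right edge in 17 members, and crosses (REF) lie left of all WT symbols in 15.

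REF was also compared with WT as 1 sample against 3. No member passed (0 of 45, beside 0.0% of all genes; limma, and 0 with robust eBayes too), and 1, Gsta3, had an unadjusted p under 0.05, as did 208 of all genes. The median log2 difference, REF minus WT, was -0.23 over the members and -0.05 over all genes. Since REF and STAT5b-/- are set against the same WT arrays, their differences are not independent.

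Genes that supply or use the groups to be transferred were read from lists set beside the members. For glucuronidation, 3 of 4 measured genes rose and 0 fell, also at an unadjusted p under 0.05. That is 75.0% higher, beside 13.2% of all genes higher and 8.43% lower. Ugcg, counted among the risen genes, draws on UDP-glucose for another product and is not itself a glucuronidation gene. Ugdh, which oxidises UDP-glucose to UDP-glucuronate, rose 2.28-fold (log2 difference 1.19 ± 0.12, limma adjusted p = 0.00134), Ugcg, which uses UDP-glucose to make glucosylceramide, 1.91-fold, and Ugp2, which makes UDP-glucose, 1.5-fold. Gusb, the lysosomal enzyme that removes glucuronate, had a log2 difference of -0.54 (adjusted p = 0.146).

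For sulfation, 6 of 12 rose and 2 fell, beside 13.2% of all genes higher and 8.43% lower. The sulfate transporter Slc26a1 rose 13.3-fold, to a mean ratio of 13.6 ± 4.53 (SD, n = 3; adjusted p = 0.000354), with REF at 0.815. Papss2, which makes PAPS, rose 4.94-fold (log2 difference 2.30 ± 0.16, adjusted p = 0.000397), while Papss1, named after its value was seen, had a log2 difference of -0.22 (adjusted p = 0.386). Bpnt1, which clears the spent nucleotide, rose 1.90-fold, and the anion exchanger Slc26a3 1.82-fold. The falls, named after their values were seen, were in Tpst1, which sulfates tyrosines of secreted proteins, by 0.72 on the log2 scale, and in Bpnt2, a Golgi phosphatase, by 0.46.

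For glutathione, 7 of 19 rose and 4 fell (36.8% and 21.1%, beside 13.2% and 8.43% of all genes). Gclc and Gclm, the subunits of the enzyme that limits glutathione synthesis, rose 3.50-fold and 2.16-fold (adjusted p = 0.00181 and 0.00320). In contrast Slc7a11, which imports cystine, fell by 1.79 and Chac1, which degrades glutathione, by 1.81 on the log2 scale (adjusted p = 0.00197 and 0.00329).

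NRF2 is the transcription factor best known for inducing Gst genes and glutathione synthesis under oxidants and electrophiles. Of 19 genes of its pathway, 9 rose and 1, Slc7a11, fell (47.4% and 5.26%, beside 13.2% and 8.43% of all genes). Gclc, Gclm and Slc7a11 are in the glutathione list too. Beside Gclc, Srxn1, which repairs peroxiredoxins, rose 2.57-fold, the NRF2 partner Maff 3.49-fold and G6pdx, which makes NADPH, 2.16-fold. Named after their values were seen, Nfe2l2, which encodes NRF2, rose 1.71-fold and its classical target Nqo1 3.77-fold, while the target Hmox1 had a log2 difference of -0.24 (adjusted p = 0.324).

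Among receptors and factors known to regulate conjugating enzymes, 9 of 18 rose and 1 fell, beside 13.2% of all genes higher and 8.43% lower. Rxra, the shared partner of the nuclear receptors, rose 2.22-fold, Pparg, a lipid sensor, 4.13-fold, Vdr, the vitamin D receptor, 1.66-fold and Hnf4a, a factor of epithelial identity, 1.63-fold (adjusted p from 0.00242 to 0.00806). Named after their values were seen, the drug sensor Nr1i2 (PXR) rose 2.16-fold and the aryl hydrocarbon receptor Ahr fell by 0.47 on the log2 scale (adjusted p = 0.0256). Median log2 differences of the lists were 0.76 for UDP-glucuronate, 0.34 for sulfate, 0.27 for glutathione, 0.77 for NRF2 and 0.53 for regulators, beside 0.01 over all genes.

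**Figure D4:**
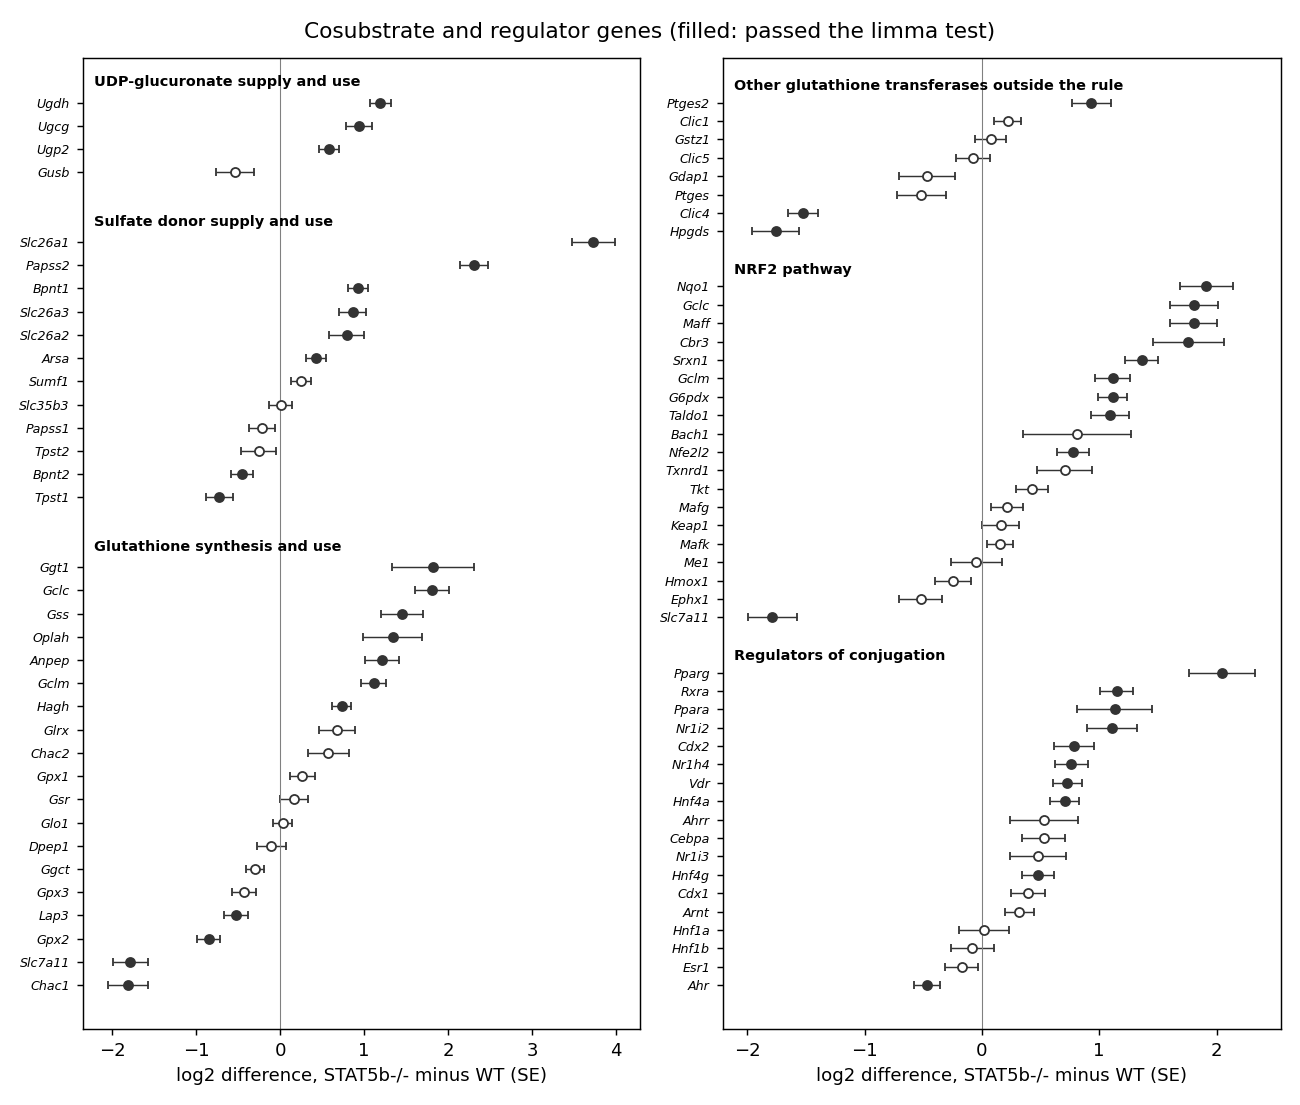
Log2 difference, STAT5b-/- minus WT, with the SE of the fit, for genes that supply or use the transferred groups (left) and for other glutathione transferases, the NRF2 pathway and regulators (right). Filled circles passed the limma test; Slc26a1 at 3.73 is the largest difference, and Slc7a11 and Chac1 are the lowest.

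Markers of several cell types also changed, in lists to be read beside 13.2% of all genes higher and 8.43% lower. Of 12 absorptive colonocyte markers 9 rose and 1 fell (the sulfate list's Slc26a3 is among them), with median ratios of 0.986 to 1.01 over the WT arrays, 1.72 to 1.78 over STAT5b-/- and 1.01 in REF. Of 8 goblet cell markers 0 rose, also at an unadjusted p under 0.05, and 6 fell. Their medians were 0.959 to 1.06 in WT and 0.249 to 0.330 in STAT5b-/-. Of 11 fibroblast and smooth muscle markers likewise 0 rose and 7 fell, with medians of 0.901 to 1.10 and 0.499 to 0.652. Those falls were all in fibroblast and matrix genes. The smooth muscle genes Acta2, Myh11, Tagln and Des, named after their values were seen, had log2 differences of -0.01, 0.01, -0.19 and -0.18. None of them passed. Of 11 small intestine markers 3 rose and 1 fell (27.3% and 9.09%). Of 5 stem and crypt base markers 1 rose and 2 fell (20.0% and 40.0%). In whole tissue, fewer cells of a type and less RNA per cell cannot be told apart, and the part of these shifts in the members' rises was not tested. Since values are ratios, no marker could be called absent.

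The bases before the gene starts were searched for motifs of factors named above, on both strands of RefSeq windows (GRCm38.p6) of 300 bases, 250 of them before the start. Of the 52 genes 46 had a window, 56 windows in all. The STAT motif TTCNNNGAA was in 5 of the 56 (8.93%) and in 2 of the 28 windows of risen members, Gstm6 and Ugt1a6a, beside 8.30% of all 32851 windows. Every Ugt1a window was counted among the 28 because the single Ugt1a value rose. Which Ugt1a start was used is not known, so Ugt1a6a itself cannot be said to have risen. The antioxidant response element core TGACNNNGC, which NRF2 binds, was in 3 (5.36%), of which Gsta3 alone rose, beside 12.4% of all windows. The aryl hydrocarbon receptor core GCGTG was in 12 (21.4%) beside 32.4%, and can overlap the preceding motif, as in Gstm5. A palindromic HNF1 motif was in 0 members' windows and in 3 of all. Among the windows of risen members alone the shares were 7.14% for STAT, 3.57% for the antioxidant core and 28.6% for the aryl hydrocarbon receptor core, none above the share of all windows. A match is only these letters in a short window. The 150 bases before the starts of Gsta3 (chr1:21240435-21240584, plus strand) and Gstm6 (chr3:107943399-107943548, minus strand), 5′ to 3′, are shown because they hold the antioxidant core or STAT matches among risen Gst members, in capitals: the antioxidant core in Gsta3 and the STAT motif in Gstm6. The aryl hydrocarbon receptor core, not shown, was in the window of the risen Gstp3.
Gsta3: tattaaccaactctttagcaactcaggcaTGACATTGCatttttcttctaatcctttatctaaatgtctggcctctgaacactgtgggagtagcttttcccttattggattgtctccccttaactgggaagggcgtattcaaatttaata
Gstm6: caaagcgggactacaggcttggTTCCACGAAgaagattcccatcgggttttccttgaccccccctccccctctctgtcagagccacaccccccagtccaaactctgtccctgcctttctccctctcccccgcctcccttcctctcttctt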

How the data were processed

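Colon RNA was measured on arrays with an Affymetrix labelling protocol after amplification of 100 ng total RNA, per the labels. The deposited values are linear ratios. In all 26180 probe sets the WT columns average 1 (largest departure 1.87e-07), as if the authors had divided by that average. RMA is named, without a version, in the submitters' processing notes; the array type and build are not given in the sources used here. The lowest value, 0.01, was taken as a floor; no conjugating enzyme reached it (lowest value 0.130). No intensities were used, and the number of arrays limits the precision.

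Accessions in probe set names were matched to RefSeq symbols (GRCm38.p6): 15228 probe sets matched 1 symbol and 10952 none. Ratios were taken to log2 with no pseudocount, and probe sets of a gene, and of the Ugt1a genes, were averaged. WT and STAT5b-/- were compared with limma 3.58.1 (lmFit, eBayes) in R 4.3.3 over those 6 arrays, with Benjamini-Hochberg adjustment over 14344 genes and a threshold of 0.05; the scripts were tested on simulated data. Folds come from mean log2 ratios, and intervals are 95% intervals of the fit. An exact test of 3 against 3 cannot go below p = 0.1. Upstream stretches were aligned globally with Biopython 1.88.

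The members, lists and naming rule were chosen with earlier results of these data known. Every member could be named. All that passed are given in full, with the 2 of smallest p per family among the rest and up to 4 per list. Ugt2b37 and Gsto2 fall outside this rule, and their array values were added after they were seen. Alternatives were another probe set rule, single probe sets, quantile normalization, median centring, REF in the fit or among the controls, a replicate block, no genes at the floor, robust eBayes, single Ugt1a genes and each array left out. Replicate numbers were not taken to pair the samples in the main fit. Same-numbered arrays had correlations of deviations of 0.0355, -0.0986 and -0.186, and differently numbered ones of -0.137 to 0.216. With 3 arrays per group these values cannot exclude a pairing.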

Additional observations from a re-analysis of the deposited data

How the results depend on the processing

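Over all genes, 3107 passed, against 333 under quantile normalization (127 higher, 206 lower) and 2029 with the replicate block; with 1 array left out the count was 1698 to 3542. The members that passed numbered 18, against 3 under quantile normalization, 16 with the replicate block and 15 to 22 with 1 array left out. Quantile normalization, which gives all arrays 1 distribution, left 1 Ugt, 1 Sult and 1 Gst or Mgst member. Before it, the SD of log2 ratios was 0.289 to 0.363 in the WT columns, whose own mean is 1. It was 0.402 in REF and 0.646 to 0.737 in STAT5b-/-. The part of these spreads in the lost calls was not tested. With each Ugt1a gene on its own, 12 Ugt genes passed in place of 5. With 1 array left out, 5 to 7 Ugt, 3 to 5 Sult and 7 to 10 Gst and Mgst members passed. The block ended the calls of Gstp3 (adjusted p = 0.0693) and Gstt2 (0.0825) and no other member's. Ugt2a3, at -0.07, ran from -0.42 without WT replicate 1 to a called 0.49 without WT replicate 2 (adjusted p = 0.0425). With WT replicates 1 and 3 and REF as controls, chosen after seeing the data, 24 members rose and 0 fell. With REF beside all WT arrays 22 did. Counts over all genes with these controls are not given here, so these gains cannot be read as particular to the members. Of the 18, 3 passed under all 17 alternatives and 12 more under all but quantile normalization. In the comparison of REF with WT, 0 members passed under any alternative run. The cause of the changes between alternatives was not tested.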

Other observations

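Enzymes with a glutathione transferase fold or activity that lie outside the named families were measured for 8 genes, of which 1 rose and 2 fell, beside 13.2% of all genes higher and 8.43% lower. Hpgds, which makes prostaglandin D2 and is a marker of tuft and mast cells, fell by 1.76 on the log2 scale (limma adjusted p = 0.00194), and Clic4, a chloride channel relative of the omega class, fell by 1.52 (adjusted p = 0.000683). Ptges2, a prostaglandin E synthase, rose 1.91-fold (adjusted p = 0.00923), while Ptges, a relative of Mgst1, had a log2 difference of -0.52 (adjusted p = 0.132).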
